A study of Mus musculus with 14 samples.

Results

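Ceruloplasmin (Cp) and 9 other genes of iron handling were followed in the isolated colon epithelium of WT and Smad4 KO mice, on water and after dextran sulfate sodium (DSS). The other 9 were Heph, Slc40a1, Slc11a2, Cybrd1, Tfrc, Trf, Fth1, Ftl1 and Hmox1. The 10 genes were chosen by name from the 37680 genes of the count table and all 10 were found in it. Cp was included because it was higher in Smad4 KO epithelium after DSS. Its levels in the DSS libraries are therefore a description, and no test is given for any comparison that uses those libraries. The other genes were tested in every comparison in which they passed the count minimum, which 8 of them did throughout and Cybrd1 did not.

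The study asked how loss of Smad4, the shared partner of the BMP and TGF-β signal transducers, alters the response of the colon epithelium to DSS, a polymer that injures it. There were 4 WT and 4 Smad4 KO libraries from untreated mice on drinking water, and 3 WT and 3 Smad4 KO libraries from mice given 2.5% DSS ad libitum in the drinking water for 3 d. Smad4 was deleted in adult mice of a C57/BL6 enriched background that carried the conditional Smad4 f/f alleles and the tamoxifen-inducible Villin-CreERT2 transgene, which is active in the intestinal epithelium and not in the mesenchyme below it. The methods say that the controls carried the transgene too; whether they were given tamoxifen was not given in the sources used here. The epithelium of the whole colon was released with EDTA in the cold, and polyadenylated RNA was sequenced. The labels do not say whether each library came from a separate mouse, so the p-values measure the spread between these libraries.

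Iron enters an intestinal cell at its luminal face, where Cybrd1 reduces it and Slc11a2 (DMT1) carries it in, and at its basolateral face, where Tfrc, the transferrin receptor, takes up iron bound to transferrin (Trf). Iron that is not used is kept in ferritin, built from heavy (Fth1) and light (Ftl1) chains, or leaves through ferroportin (Slc40a1), the only known cellular iron exporter. The multicopper ferroxidases hephaestin (Heph), anchored in the membrane, and ceruloplasmin, a plasma protein made mainly in the liver, oxidize the exported iron so that transferrin can bind it. Heme oxygenase 1 (Hmox1) frees the iron of heme. Hepcidin, a peptide hormone made mainly in the liver under BMP and SMAD4 control, removes ferroportin from the cell surface.

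Several of these transcripts carry iron-responsive elements, short hairpins bound by the iron regulatory proteins when iron is scarce. In a 5′ UTR this binding blocks translation, and in the 3′ UTR of Tfrc it protects the message from decay. The core hairpin was searched for in the transcripts of GENCODE M1 on mm9, as a C, a 5-base arm, the loop CAGTGN and a second arm that pairs with the first at all 5 positions, G with T allowed. Of 20302 protein-coding genes with an annotated UTR, 0.163% held such a match in a 5′ UTR and 0.616% in a 3′ UTR. Among the 10 iron genes 4 held one, shown here, with the loop in capitals, because these genes are described below. Elements with a bulge or a mismatch in these arms, such as the known one in the 3′ UTR of Slc11a2, lie outside this search.
Fth1, 5′ UTR, chr19:10057228-10057244, plus strand: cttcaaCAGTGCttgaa
Ftl1, 5′ UTR, chr7:52715155-52715171, minus strand: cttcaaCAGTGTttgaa
Slc40a1, 5′ UTR, chr1:45982316-45982332, minus strand: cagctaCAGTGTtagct
Tfrc, 3′ UTR, chr16:32631311-32631327, plus strand: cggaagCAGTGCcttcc
Tfrc, 3′ UTR, chr16:32631690-32631706, plus strand: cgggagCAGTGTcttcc
Tfrc, 3′ UTR, chr16:32631755-32631771, plus strand: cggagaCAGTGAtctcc
Tfrc, 3′ UTR, chr16:32631802-32631818, plus strand: cgggaaCAGTGTttccc
The ferritin chains and ferroportin held 1 match each, before the coding sequence, and Tfrc held 4 behind it. No match to these letters was found in the UTRs of the other 6 genes or of 65 further iron genes listed below.

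The libraries held 12882827 to 26087231 counted reads. Smad4, the deleted gene, lay between 2296 and 3532 normalized counts in the 7 WT libraries and between 679.5 and 906.1 in 6 of the 7 Smad4 KO libraries. The library labelled Smad4 KO water replicate 1 had 3063, as high as the WT libraries. It stays in the group its label gives, so each comparison with the Smad4 KO water group rests in part on it. The study's figure legends give 3 Smad4 KO replicates on water for its RNA results, against the 4 libraries so labelled here. The sources used here do not say which library the study left out, so the water comparisons are not those of the study. Mitochondrial transcripts took 21.4% to 32.8% of the reads in WT water replicates 3 and 4 and Smad4 KO water replicate 4, and 4.05% to 8.23% in the other 11 libraries. The library names begin with D, D, Z and MP in WT on water and with Z, Z, MS and MP in Smad4 KO on water. Prefix D thus occurs only in WT in the genotype comparison on water, and the labels do not say what the prefixes stand for. Levels are given below as TMM-normalized counts, on 1 scale for all 14 libraries, and an adjusted p is that of edgeR's quasi-likelihood test with Benjamini-Hochberg adjustment over all genes tested in that comparison, with a threshold of 0.05.

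Cp (chr3:19857054-19909145, plus strand, mm9) had few reads in 6 of the 7 WT libraries, and after DSS it was higher in Smad4 KO than in WT epithelium. After DSS it had 9.8, 2.66 and 6.53 normalized counts in the WT libraries, from only 3 to 11 reads each, and 84.1, 124 and 75.7 in the Smad4 KO libraries. The groups did not overlap and the fitted ratio was 14.8-fold, a log2 difference of 3.88 with a standard error of 0.42 (n = 3 and 3), which is what chose the gene. Without WT DSS replicate 3, the only one of these libraries whose name has another prefix, the value was 3.91.

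On water, in libraries that the choice did not use, Cp had 10, 10.3, 72.6 and 8.29 normalized counts in WT and 44.3, 75.1, 105 and 81.8 in Smad4 KO. WT replicate 3, at 72.6, lay inside the Smad4 KO range, and the other 3 WT libraries lay below every Smad4 KO library. The log2 difference on water was 1.63 with a standard error of 0.68 (n = 4 and 4), which did not pass the test (adjusted p = 0.21, and 0.066 to 0.43 over the alternatives). Without WT replicate 3 the difference was 2.97 (standard error 0.5, adjusted p = 0.14). That library had 30.6% mitochondrial reads, and WT replicate 4, with 32.8%, had the lowest Cp of its group.

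The order of the group means of Cp was Smad4 KO after DSS (94.6 ± 25.8, SD, n = 3), Smad4 KO on water (76.6 ± 25.1, n = 4), WT on water (25.3 ± 31.5, n = 4) and WT after DSS (6.33 ± 3.57, n = 3). The Smad4 KO groups differed by less than their SD, and the libraries of the WT groups overlapped. From water to DSS the fitted log2 change was -1.95 (standard error 0.91) in WT and 0.31 (standard error 0.34) in Smad4 KO, both given without a test. The WT value was -0.61 without WT water replicate 3. The library labelled Smad4 KO water replicate 1, with Smad4 at the WT level, had the lowest Cp of the Smad4 KO libraries, 44.3, above 6 of the 7 WT libraries.

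**Figure D1:**
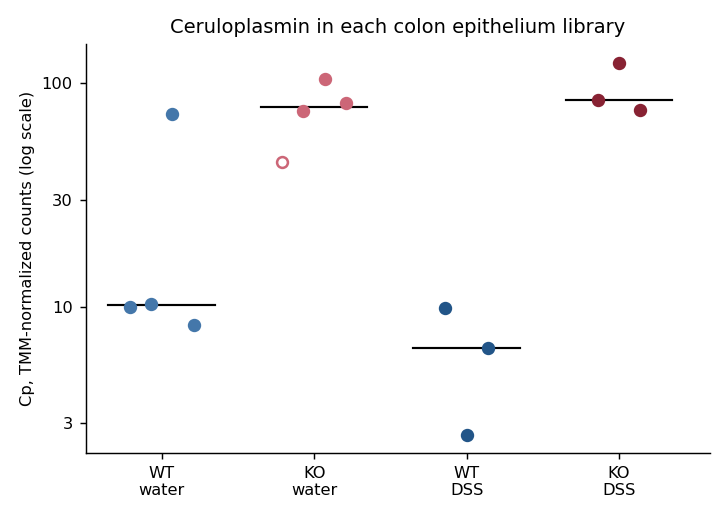
Normalized counts of Cp in each library on a log axis, by group, with the group median as a line and the library labelled Smad4 KO water replicate 1 as an open circle. The 7 Smad4 KO libraries lie between 44.3 and 124 and 6 of the 7 WT libraries between 2.66 and 10.3, with WT water replicate 3 at 72.6.

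Cp overlaps Hps3, a lysosome-related organelle gene on the other strand, over 108 exonic bases, 1.13% of the exonic length of Cp. The sources used here do not say whether the counting used strand. Hps3 lay at 188 to 311 normalized counts in WT and 289 to 372 in Smad4 KO libraries. As a ratio of highest to lowest this range was narrower than that of Cp, but Hps3 was more abundant than Cp in every library. Whether reads of Hps3 entered the count of Cp was not tested. RefSeq lists 2 Cp transcript starts on GRCm38.p6. The 250 bases before the first, shown because Cp had the largest genotype difference of the members after DSS, are at chr3:19956804-19957053, plus strand.
Cp promoter: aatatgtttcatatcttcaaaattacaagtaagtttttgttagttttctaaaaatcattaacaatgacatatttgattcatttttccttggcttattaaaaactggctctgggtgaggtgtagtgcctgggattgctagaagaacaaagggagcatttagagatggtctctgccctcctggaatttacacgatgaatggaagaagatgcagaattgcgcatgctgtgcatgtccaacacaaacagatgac
On both strands of this window there was no match to the SMAD box CAGAC, held by 42.2% of 32851 mouse promoters of this length, to the hypoxia-inducible factor core ACGTG (16.6%), to the STAT palindrome TTCNNNGAA (7.02%) or to the antioxidant core TGACNNNGC (10.2%). The window before the second Cp start had no match to these letters either. For 5 of the 10 genes a promoter was listed. Of these, 1 Tfrc start held the hypoxia-inducible factor core and the Cybrd1 start held the SMAD box.

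The exporter and its membrane-bound ferroxidase were expressed far above Cp. Per kilobase of exon, Cp stood at 0.115% to 0.366% of Heph in WT libraries after DSS and at 2.63% to 4.83% in Smad4 KO libraries after DSS. On water it stood at 0.559%, 0.499%, 2.9% and 0.645% of Heph in WT and at 1.72%, 2.24%, 2.99% and 3.88% in Smad4 KO, which overlapped. Heph (chrX:93650698-93769824) had 1438, 1655, 2002 and 1030 normalized counts in WT and 2059, 2684, 2819 and 1690 in Smad4 KO on water, so the groups overlapped. For Heph this was a log2 difference of 0.6 (standard error 0.22, adjusted p = 0.18), which passed with the replicate number as a block (0.048) and, just under the threshold, without Smad4 KO replicate 4, over a range of 0.048 to 0.41. After DSS Heph had 2144, 1856 and 2243 in WT and 2559, 2055 and 2051 in Smad4 KO, a difference of 0.1 (standard error 0.12, adjusted p = 0.72). The genotypes overlapped for Heph in both conditions.

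Ferroportin, Slc40a1 (chr1:45964915-45982439), gave values of 2456, 3349, 1996 and 1745 in WT and 3246, 3938, 5222 and 3873 in Smad4 KO on water. The groups overlapped only where WT replicate 2 exceeded the library labelled Smad4 KO replicate 1, which had Smad4 at the WT level. The log2 difference was 0.77 (standard error 0.22, adjusted p = 0.15), and it passed with DESeq2 (adjusted p = 0.03), in a model of all 14 libraries (0.032) and without Smad4 KO replicate 4 (0.049), over a range of 0.03 to 0.38. After DSS ferroportin had 3639, 4399 and 3494 in WT, all above the WT water libraries, and 4637, 4201 and 4328 in Smad4 KO. The difference of DSS from water in WT was 0.68 on the log2 scale (standard error 0.21, adjusted p = 0.1), and it passed with DESeq2 (adjusted p = 0.029) and without WT water replicate 2 (0.046), over a range of 0.029 to 0.3. After DSS the genotypes differed by 0.2 (standard error 0.11, adjusted p = 0.44).

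The transferrin receptor, Tfrc (chr16:32609006-32632880), takes transferrin-bound iron into the cell, and it was higher in most Smad4 KO than WT libraries in both conditions without passing the main test. On water it had 4875, 10884, 6237 and 4364 normalized counts in WT and 13794, 13751, 11388 and 8681 in Smad4 KO. WT replicate 2 was the only WT library that lay inside the Smad4 KO range. The log2 difference was 0.85 (standard error 0.28, adjusted p = 0.16) and it passed with DESeq2 (adjusted p = 0.044), in a model of all 14 libraries (0.049) and without Smad4 KO replicate 4 (0.047), over a range of 0.044 to 0.38. After DSS the WT libraries had 4991, 6755 and 6297 and the Smad4 KO libraries 11628, 7635 and 10413, without overlap. This second difference was 0.72, or 1.65-fold (standard error 0.17, adjusted p = 0.1), and it passed with DESeq2 (adjusted p = 0.0011) and without a count filter (0.013), over a range of 0.0011 to 1 that reached its upper end in a model of all 14 libraries. Between water and DSS, Tfrc differed by -0.13 in WT (standard error 0.29, adjusted p = 0.8) and by -0.26 in Smad4 KO (standard error 0.22, adjusted p = 0.86) on the log2 scale.

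Transferrin itself, Trf (chr9:103106331-103132774), was much lower in abundance and had the largest difference between water and DSS of the members tested. WT libraries had 97.5, 160, 271 and 369 normalized counts on water and 46.3, 90.3 and 33.4 after DSS, without overlap. The log2 difference in WT was -1.97 (standard error 0.5, adjusted p = 0.089), and it passed with DESeq2 (adjusted p = 0.0018) and without a count filter (0.031), over a range of 0.0018 to 0.37. Smad4 KO libraries had 256, 252, 239 and 429 on water and 141, 113 and 124 after DSS, again without overlap, as for 4.42% of all genes tested that were lower and 4.57% that were higher. The log2 difference in Smad4 KO was -1.22 (standard error 0.27, adjusted p = 0.33, and 0.0063 with DESeq2, over a range of 0.0063 to 1). All 3 Smad4 KO DSS libraries have the name prefix D and none of the 4 Smad4 KO water libraries does, so prefix and DSS cannot be told apart in this comparison. The 2 highest Trf libraries of the WT water group and the highest of the Smad4 KO water group were the 3 with over 21% mitochondrial reads, and without those 3 libraries the log2 differences were -1.18 in WT (adjusted p = 0.18) and -0.98 in Smad4 KO (adjusted p = 0.12).

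After DSS every Smad4 KO library also had more Trf than every WT library, 113 to 141 against 33.4 to 90.3. This was a log2 difference of 1.15, or 2.23-fold (standard error 0.34, adjusted p = 0.16), and it passed with DESeq2 (adjusted p = 0.02) and without WT DSS replicate 2 (0.048), over a range of 0.02 to 0.93. On water the genotypes overlapped and differed by 0.4 (standard error 0.37, adjusted p = 0.55).

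The ferrous iron carrier Slc11a2 (chr15:100218329-100255503) varied little, between 669 and 1197 normalized counts in the 14 libraries, and all 4 groups overlapped. Its log2 difference between genotypes was 0.14 on water (standard error 0.19, adjusted p = 0.69) and -0.06 after DSS (standard error 0.11, adjusted p = 0.83). Cybrd1 (chr2:70955980-70980983), the duodenal ferric reductase, was at or near 0. It had 0 to 4 reads in the WT libraries and 0 to 17 in the Smad4 KO libraries, with the highest, 17 and 10, in the Smad4 KO water group, and it was not tested. A count of 0 allows up to 3 reads in that library.

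**Figure D2:**
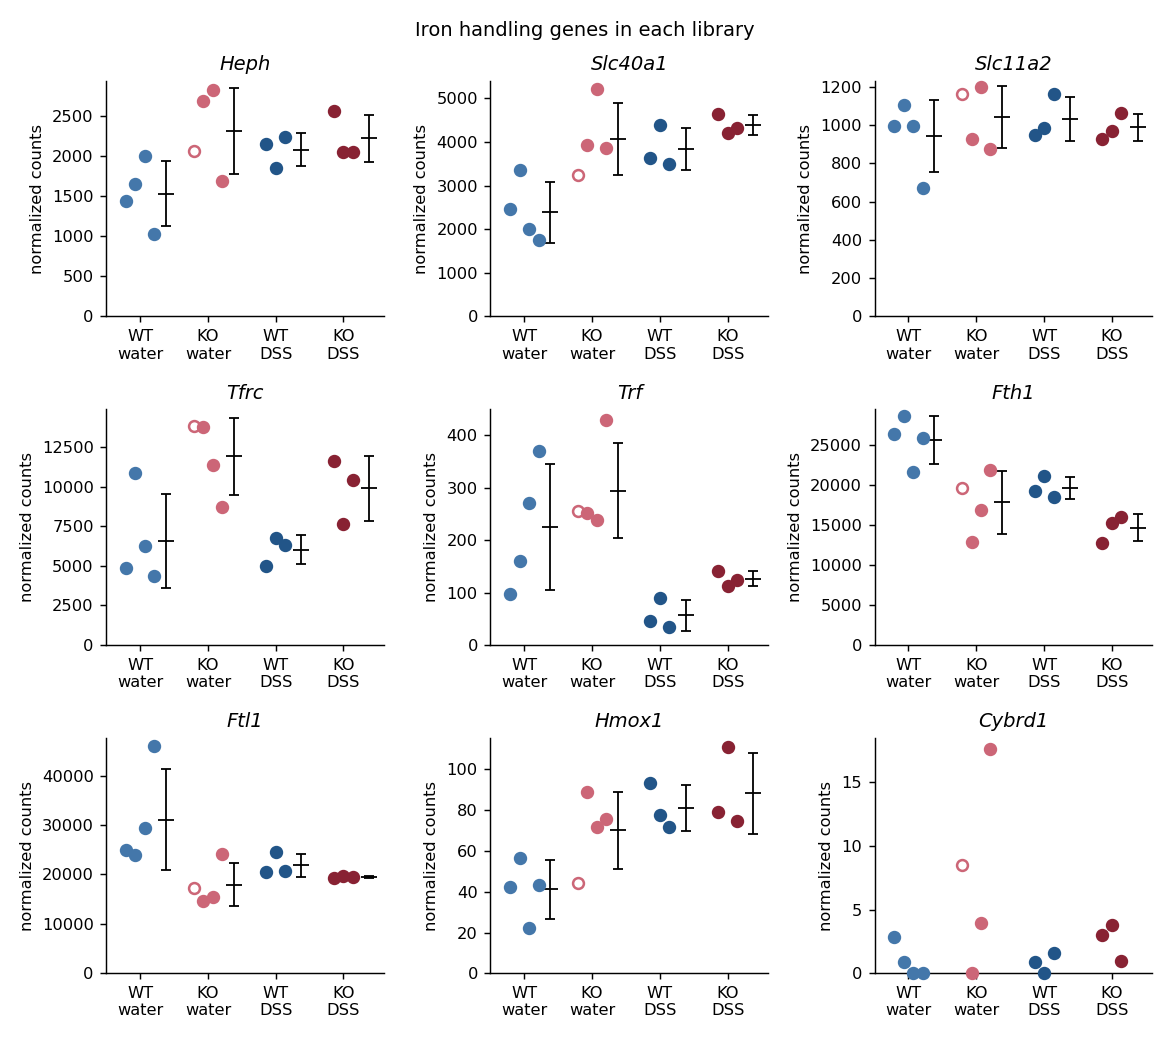
Normalized counts of the 9 members other than Cp in each library, with linear axes from 0, the mean and SD of each group beside its points (not for Cybrd1), and the library labelled Smad4 KO water replicate 1 open. Tfrc is higher and Fth1 lower in Smad4 KO than in WT after DSS without overlap, Trf is lower after DSS in both genotypes, and Slc11a2 lies between 669 and 1197 throughout.

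The ferritin chains were the most abundant members, and their fitted differences between genotypes were negative where those of Tfrc were positive, none past the main test. Fth1 (chr19:10057193-10059582) had 26406, 28641, 21569 and 25889 normalized counts in WT and 19650, 12833, 16887 and 21927 in Smad4 KO on water. The groups overlapped by 1 library on each side, with a log2 difference of -0.52 (standard error 0.21, adjusted p = 0.19). After DSS Fth1 had 19207, 21152 and 18478 in WT and 12806, 15283 and 15946 in Smad4 KO, without overlap. The log2 difference was -0.41, 0.75 of the WT level (standard error 0.12, adjusted p = 0.15), and it passed with DESeq2 (adjusted p = 0.019), over a range of 0.019 to 1. In WT, Fth1 was also lower after DSS than on water without overlap, by -0.39 on the log2 scale (standard error 0.16, adjusted p = 0.16, and 0.036 with DESeq2, over a range of 0.036 to 0.42).

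The light chain, Ftl1 (chr7:52713314-52715254), had 25012, 24034, 29307 and 45968 in WT and 17236, 14699, 15421 and 24194 in Smad4 KO on water. Smad4 KO replicate 4 was the only Smad4 KO library inside the WT range. It and WT replicate 4, at the top of each group, were both among the libraries rich in mitochondrial reads. The log2 difference was -0.8, 0.575 of the WT level (standard error 0.26, adjusted p = 0.16). It passed with DESeq2 (adjusted p = 0.03), in a model of all 14 libraries (0.036) and without Smad4 KO replicate 4 (0.038), over a range of 0.03 to 0.39. After DSS the WT values of 20410, 24521 and 20682 all lay above the Smad4 KO values of 19224, 19634 and 19533, but the difference was only -0.16 (standard error 0.11, adjusted p = 0.5). Both ferritins have processed copies in the genome, and Ftl2 and Fth-ps2 drew at most 19 and 7 reads, so few reads of the ferritin chains were assigned to these copies.

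Set against each other in the same library, the ratio of Tfrc to Fth1 did not overlap between genotypes in either condition. The ratio was chosen after the values were seen and carries no test. After DSS Tfrc was higher and Fth1 and Ftl1 lower in Smad4 KO without overlap. The ratios of Tfrc to either ferritin chain after DSS were therefore bound to separate the genotypes and only restate those genes. Normalized counts of Tfrc were 18.5%, 38%, 28.9% and 16.9% of those of Fth1 in WT on water and 70.2%, 107%, 67.4% and 39.6% in Smad4 KO on water. After DSS they were 26%, 31.9% and 34.1% in WT and 90.8%, 50% and 65.3% in Smad4 KO. The highest WT library, at 38%, lay just below the lowest Smad4 KO library, at 39.6%. The library labelled Smad4 KO water replicate 1, at 70.2%, lay with the Smad4 KO libraries although its Smad4 was at the WT level. The ratio of Tfrc to Ftl1 did overlap on water, at 19.5%, 45.3%, 21.3% and 9.49% in WT and 80%, 93.6%, 73.8% and 35.9% in Smad4 KO. After DSS it was 24.5%, 27.5% and 30.4% in WT and 60.5%, 38.9% and 53.3% in Smad4 KO, without overlap.

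**Figure D3:**
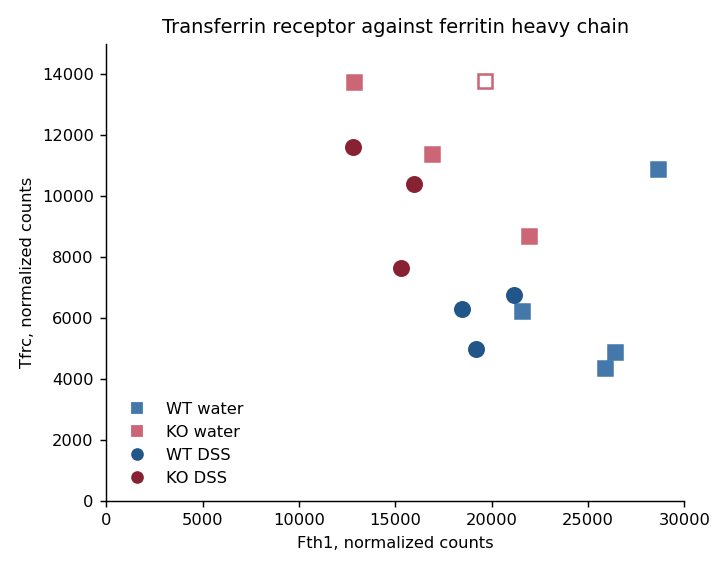
Normalized counts of Tfrc against those of Fth1, 1 point for each of the 14 libraries, squares for water and circles for DSS, with the library labelled Smad4 KO water replicate 1 open. Smad4 KO libraries lie above and to the left, where Tfrc is 39.6% to 107% of Fth1, and WT libraries below and to the right, where it is 16.9% to 38%. After DSS neither gene overlapped between genotypes, so the ratio could not overlap either.

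Hmox1 (chr8:77617490-77624495), which breaks down heme, was low, at 22.1 to 111 normalized counts. In WT it had 42.3, 56.7, 22.1 and 43.5 on water and 93.5, 77.9 and 71.8 after DSS, without overlap. In WT DSS and water thus differed by 0.96 on the log2 scale (standard error 0.34, adjusted p = 0.13, and 0.056 to 0.36 over the alternatives). In Smad4 KO the water values of 44.3, 88.9, 71.7 and 75.6 and the DSS values of 79, 111 and 74.7 overlapped, with a difference of 0.33 (standard error 0.32, adjusted p = 0.89). The difference between the WT and Smad4 KO responses was -0.63 (standard error 0.47) and did not pass (adjusted p = 0.72).

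Counted together, none of the members tested passed in any main comparison, and few genes of the whole table did. On water 1 of 14568 genes (0.00686%) passed between genotypes, and 3057 (21%) had an unadjusted p under 0.05, as did 6 of the 9 members tested. For DSS against water in WT, 0 of 14407 genes (0%) passed and 3612 (25.1%) were under 0.05 unadjusted, as were 5 of 8 members. After DSS 114 of 14241 genes (0.801%) passed between genotypes, 51 higher and 63 lower in Smad4 KO, and 2233 (15.7%) were under 0.05 unadjusted, as were 3 of 8 members. For DSS against water in Smad4 KO, 1 of 14409 genes (0.00694%) passed and 943 (6.54%) were under 0.05 unadjusted, as was 1 of 8 members. The test of the difference between the DSS responses passed 1 of 15127 genes (0.00661%) and no member, with 0 of 8 members and 1135 genes (7.5%) under 0.05 unadjusted.

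DESeq2 passed 3 members on water, 3 for DSS in WT, 3 between genotypes after DSS and 1 for DSS in Smad4 KO, as named above. After DSS 10.4% of all genes tested were higher in Smad4 KO than in WT without overlap and 11.7% lower, beside Tfrc and Trf higher and Fth1 and Ftl1 lower among the 8 members tested. In WT 13.2% of all genes were higher after DSS without overlap and 11.9% lower, beside Slc40a1 and Hmox1 higher and Trf and Fth1 lower.

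**Figure D4:**
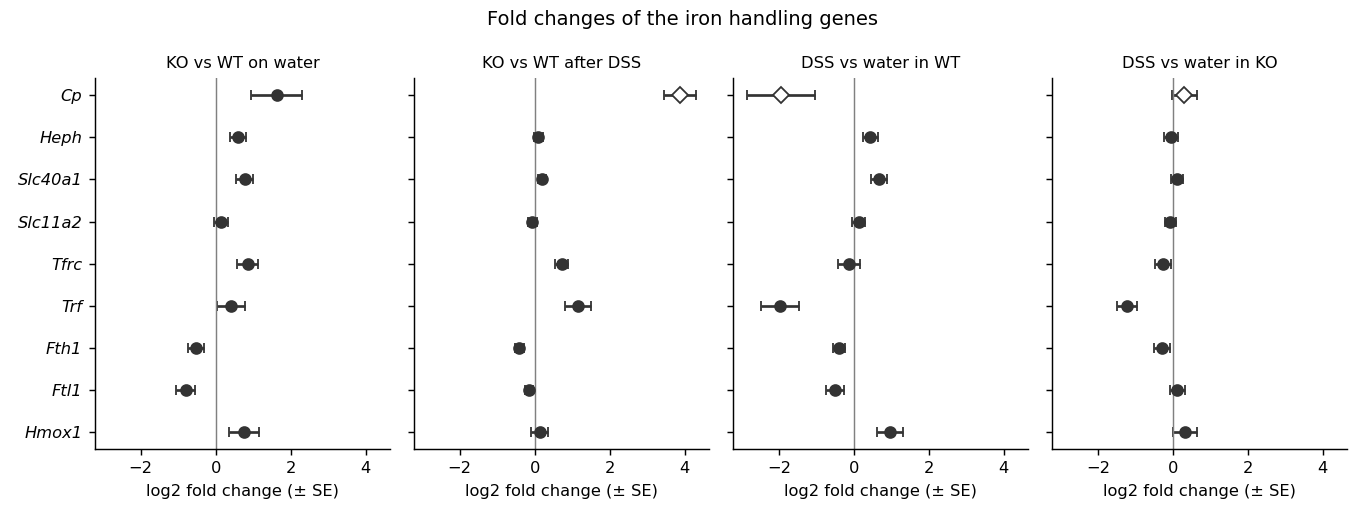
Log2 fold changes of 9 members, with bars of 1 standard error, in the 4 comparisons. Filled circles were tested and none passed at an adjusted p under 0.05, and open diamonds mark Cp in the comparisons that use the DSS libraries, given without a test. Cp lies at 3.88 for Smad4 KO against WT after DSS, and Trf at -1.97 and -1.22 for DSS against water.

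A wider list of 65 iron genes, drawn up with earlier results of these data known, was described for context. Between genotypes after DSS 55 of them were tested, 1 rose, none fell and 54 did not pass, with a median log2 difference of 0.06 beside 0.00444 over all genes tested. In the other 3 pairwise comparisons and for the difference of the DSS responses no gene of the list passed in edgeR. An unadjusted p under 0.05 was seen for 21 of 56 on water (21% of all genes), 17 of 55 for DSS in WT (25.1%), 8 of 55 between genotypes after DSS (15.7%) and 5 of 55 for DSS in Smad4 KO (6.54%). Between genotypes after DSS the 55, the 54 and the 8 include Hamp2, described below. It reached the count minimum there only through the WT libraries, so its place in these counts carries no weight. The median log2 differences on water and for DSS in WT and in Smad4 KO were 0.11, 0.15 and 0.07, beside -0.00722, -0.0168 and -0.0205 over all genes tested. By role, the 10 tested ferrireductases and uptake genes held the 1 call. None was called among the storage and turnover genes, the sensors, the mitochondrial and iron-sulfur cluster genes, the heme synthesis genes, the heme transport genes and the copper suppliers of the ferroxidases.

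The gene that passed was Slc39a8 (ZIP8, chr3:135488243-135551536), a transporter of divalent metals that include iron, zinc and manganese. After DSS it had 985, 943 and 948 normalized counts in WT and 1801, 1557 and 1510 in Smad4 KO. It rose by 0.76 on the log2 scale, 1.7-fold (standard error 0.1, adjusted p = 0.011). The alternatives gave adjusted p-values of 8.5e-08 to 0.21, and the call was lost in a model of all 14 libraries (0.21) and in that model without Smad4 KO water replicate 1 (0.14). On water Slc39a8 had 1306, 840, 1068 and 1227 in WT and 1435, 1753, 1574 and 1438 in Smad4 KO, again without overlap, where 5.33% of all genes were higher without overlap and 5.31% lower, and the difference of 0.48 did not pass (standard error 0.17, adjusted p = 0.17).

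Hamp2, which encodes the hepcidin-like peptide 2 of the mouse, was near 0 in the libraries with low Smad4, though it had few reads in all libraries. It was singled out after its values were seen. WT libraries had 21, 53, 13 and 6 reads on water and 12, 28 and 15 after DSS. Smad4 KO libraries had 0, 0 and 0 reads on water in replicates 2, 3 and 4 and 0, 2 and 1 after DSS, while the library labelled Smad4 KO water replicate 1 had 20. After DSS the summed counts were 3 in Smad4 KO and 55 in WT, so Smad4 KO held 6.22% of the WT level once scaled to TMM-adjusted library sizes. No test is given for Hamp2 after DSS, since it reached the count minimum only through the WT libraries, though it stays in the counts of the wider list above. Hamp, hepcidin itself, summed to 19 reads in WT and 0 in Smad4 KO after DSS and was under the count minimum.

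**Figure D5:**
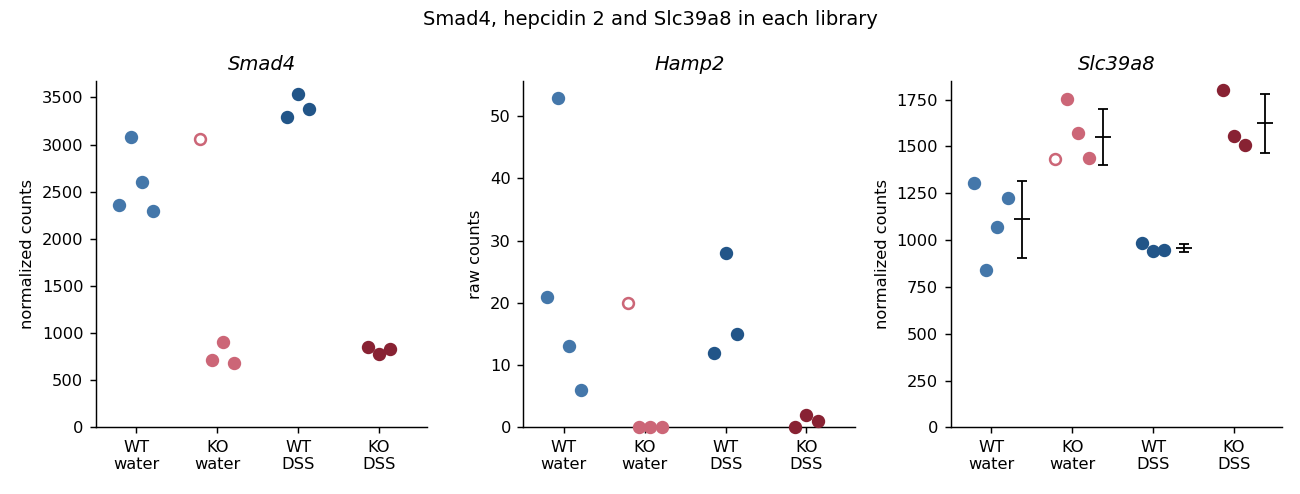
Smad4 (normalized counts), Hamp2 (raw counts) and Slc39a8 (normalized counts) in each library, with linear axes from 0, mean and SD beside the points for Slc39a8, and the library labelled Smad4 KO water replicate 1 open. That library lies with WT for Smad4 (3063) and Hamp2 (20 reads), and the 6 other Smad4 KO libraries have 0 to 2 Hamp2 reads.

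For DSS in WT, the genes of the list with the lowest adjusted p-values did not pass. Lcn2, which binds bacterial siderophores, went from 92.5, 165, 120 and 151 normalized counts on water to 305, 456 and 417 (log2 difference 1.57, standard error 0.24, adjusted p = 0.061). Ltf, the iron-binding lactoferrin, went from 66 to 152 on water to 154 to 492 (1.8, standard error 0.4, adjusted p = 0.085). The ferrireductase Steap2 lay at 280 to 409 on water and 528 to 578 after DSS (0.71, standard error 0.16, adjusted p = 0.085). Next came, at an adjusted p of 0.11 each, the ferritin turnover receptor Ncoa4 (0.8) and the heme synthesis enzymes Uros (-0.47) and Ppox (-0.76). These 6 genes were picked because of their values and are given as a description.

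Cp is also known as a target of hypoxia-inducible factors, and a list of 15 such targets and one of 10 NRF2 targets were looked at in the same fits. After DSS 1 of the 15 rose in Smad4 KO, none fell and 14 did not pass, with a median log2 difference of 0.07. It was Bnip3, a mitochondrial protein of mitophagy and cell death, with 215, 281 and 339 normalized counts in WT and 643, 530 and 524 in Smad4 KO (1.03 on the log2 scale, standard error 0.17, adjusted p = 0.036). The alternatives gave 5.6e-06 to 0.36. The losses of the call included a model of all 14 libraries (0.36), the replicate block, and the fits without WT DSS replicate 2 (0.086) or any 1 of the Smad4 KO DSS libraries (0.083 to 0.1). Without overlap, 5 of the 15 lay higher and 1 lower in Smad4 KO, beside 10.4% and 11.7% of all genes. The 4 higher ones beside Bnip3 did not pass. They were Egln3 (0.38, adjusted p = 0.1), Ero1l (0.34, adjusted p = 0.15), Pdk1 (0.3, adjusted p = 0.18) and P4ha1 (0.24, adjusted p = 0.33), and the lower one was Slc2a1 (-0.32, adjusted p = 0.21). None of the 10 NRF2 targets passed in any comparison. Between genotypes after DSS 6 of the 15 and 4 of the 10 had an unadjusted p under 0.05, beside 15.7% of all genes, and the 4 were Me1, Slc7a11 and Prdx1 with positive and Srxn1 with negative differences.

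Across the 14 libraries, the genes whose log2 level was most like that of Cp, of 11530 genes with a mean of at least 50 normalized counts, were Smoc2 (Pearson's r = 0.92), Mboat2 (0.91), Fmnl2 (0.89), Dtx4 (0.89) and Svil (0.86). The points share the 4 groups, so these values describe a common group pattern and are given without a p. Smoc2, a secreted matricellular protein, had 378 to 628 normalized counts in WT and 1418 to 1573 in Smad4 KO after DSS, and 754 to 1223 and 1398 to 1932 on water. Among the members, the log2 level of Cp had r = 0.59 with Tfrc, 0.53 with Heph, 0.48 with Trf and 0.37 with Slc40a1. It had 0.16 with Hmox1, 0.13 with Slc11a2, -0.48 with Ftl1 and -0.64 with Fth1. The strongest of all pairs compared was Heph with Ftl1, at -0.89. WT and Smad4 KO water replicate 4, both rich in mitochondrial reads, each had the lowest Heph and the highest Ftl1 of their group.

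The epithelial markers summed to 20900 to 32500 CPM (counts scaled to the size of the library) in every library, and none of the 12 was at 0. Macrophage markers, from cells that recycle iron and express Slc40a1 and Hmox1, summed to 9.09 to 15.1 in WT and 14.8 to 18.5 in Smad4 KO on water, and to 14.3 to 20.7 and 14.8 to 16.3 after DSS, with none of the 10 at 0 throughout. The 7 red cell markers found, of 9 listed, summed to 0.715 to 8.98. The neutrophil markers summed to 39.3 to 111, of which Ly6g alone gave 39 to 110, while each of the other 7 stayed at or below 0.481 and Elane was at 0 in all libraries. Lymphocyte markers summed to 4.48 to 25.6, endothelial markers to 3.4 to 10.6 with Emcn at 0 in all libraries, and squamous markers to 0.357 to 3.85 with Krt5 and Trp63 at 0 in all libraries. The distal Hox genes, which mark the position along the colon, summed to 334 to 625 in WT and 211 to 562 in Smad4 KO.

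The summed level of the 7 fibroblast markers did not overlap between genotypes in either condition. They summed to 6.67 to 10 CPM in WT and 10.7 to 32.8 in Smad4 KO on water, and to 8.36 to 10.1 and 14.1 to 21.4 after DSS, with none of the 7 at 0 throughout. Pdgfrb gave 5.78 to 10.6 CPM of it in each library, Pdgfra stayed at or below 0.534 CPM, and Lum had at most 1 read. The highest values of the other markers were 11.5 CPM for Dcn, 5.24 for Col3a1, 5.13 for Col1a2 and 2.24 for Col1a1. The study itself reports a rise of the Col1a1, Col1a2 and Col3a1 transcripts in Smad4 KO epithelium. From barely detectable Pdgfra transcripts, the study concludes that its epithelial RNA was free of pericryptal fibroblasts. WT water replicate 3, the WT library with the most Cp, had the lowest sum of fibroblast markers, 6.67, but it is a single library. After DSS both Cp and this sum were higher in Smad4 KO than in WT without overlap. The part of the fibroblast markers in the differences of Cp, Tfrc, Trf and the ferritins was not tested. In bulk RNA, fewer cells of a type and less RNA per cell cannot be told apart.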

How the data were processed

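Members and gene lists were chosen with earlier results of these data known. Per the submitters' processing notes and the methods, the authors aligned reads to mm9 with HISAT2 and deposited featureCounts counts per gene. The study's data statement calls them normalized, but they are whole numbers with unequal totals and were treated as raw counts. Strand settings were not given in the sources used here. Of 37680 genes, 37310 were listed in GENCODE M1, which gave names and positions. Counts were not summed over the 2 gene IDs of Trf, since one was at 0 in every library. Libraries were grouped by their labels, with 12882827 to 26087231 counts each. The test covered genes that reached 10 counts in 3 or more of the libraries compared and was run with edgeR 4.0.16 (R 4.3.3, TMM, quasi-likelihood). The study made pairwise comparisons with DESeq2. Here only the 2 groups compared entered a fit, and DESeq2 was an alternative. The difference of the DSS responses used all 14 libraries. A model of all 14 was an alternative because it shares the spread of Smad4 KO water replicate 1, which goes against its label. The alternatives also held DESeq2 1.42.0, RLE factors, no filter, a minimum of 50 counts, a replicate block, the libraries with name prefix D and each library left out. Leaving out libraries with over 20% mitochondrial reads, and 1 library from the model of all 14, were added after seeing the data. Named genes were the members, list genes that passed with a mean of at least 50 and no overlap (up to 5 in each direction), and the 5 genes most correlated with Cp on log2 CPM. Others are marked as chosen later. In simulated counts on 14568 genes for the water comparison, 31 of 100 genes changed by 1 on the log2 scale and 83 of 100 changed by 3 were recovered with 7 false calls, and on 14241 genes after DSS 76 and 99 with 19 false calls.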

Additional observations from a re-analysis of the deposited data

Results flagged for a closer look

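A single library stood apart from the other 3 of its group for 3 genes, by a gap larger, relative to the range of the group, than Dixon's 95% critical value, among 28 groups of 4 looked at. Chance gives about 1 in 20. Cp stood at 72.6 normalized counts in WT water replicate 3, against 8.29 to 10.3 in the others. Trf stood at 429 in Smad4 KO water replicate 4, against 239 to 256, in a library with 21.4% mitochondrial reads. Hamp2 stood at 17 normalized counts in the library labelled Smad4 KO water replicate 1, against 0 in each of the others, and that library had Smad4 at 3063, the level of WT. With the others at 0, any count above 0 would have been flagged. Hamp2 was also looked at because of its values, so the rate of 1 in 20 does not apply to its flag.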

How the results depend on the processing

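The genes called between genotypes on water, 1 in the main fit, numbered 1276 in a model of all 14 libraries, 796 with DESeq2, 55 without a filter, 460 with the replicate block, 106 without the high-mitochondrial libraries, and 1 to 1816 with 1 library left out (1816 without Smad4 KO replicate 4, 13 without Smad4 KO replicate 1). The members called, 0 in the main fit, numbered 3 in the model of all 14 and 3 with DESeq2 (Slc40a1 and Tfrc higher, Ftl1 lower), 1 with the replicate block (Heph higher, adjusted p = 0.048), and 0 to 4 with 1 library left out (4 without Smad4 KO replicate 4).

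For DSS in WT the genes called, 0 in the main fit, numbered 1731 with DESeq2, 457 without a filter, 28 with the replicate block, 3 in libraries of prefix D, 1 without the high-mitochondrial libraries and 0 to 455 with 1 left out (455 without WT water replicate 2, 25 without WT water replicate 4). Members numbered 3 with DESeq2, 1 without a filter (Trf) and 0 to 1 with 1 left out. Between genotypes after DSS the 114 genes became 2 in the model of all 14, 8 in that model without Smad4 KO water replicate 1, 492 with DESeq2, 345 without a filter, 52 with the replicate block, 45 in prefix D and 26 to 97 with 1 left out (54 without WT replicate 2, 45 without WT replicate 3, and 41, 26 and 29 without Smad4 KO replicates 1, 2 and 3). Members numbered 3 with DESeq2, 1 without a filter (Tfrc) and 0 to 1 with 1 left out. For DSS in Smad4 KO the 1 gene became 10 in the model of all 14, 70 with DESeq2, 19 without a filter, 13 with the replicate block and 1 to 3 with 1 left out. Members numbered 1 with DESeq2 (Trf) and 0 with any 1 left out. The 1 gene of the difference of the DSS responses became 8 with DESeq2, 2 without a filter, 30 without the high-mitochondrial libraries and 1 to 6 with 1 left out.

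Of 656 alternative values of single genes, 11 changed sign, all of genes with small differences. Some alternatives are the same fit and enter these counts under both names. Between genotypes after DSS, the fit of prefix D is the one without WT replicate 3. For DSS in Smad4 KO, the fit without the high-mitochondrial libraries is the one without Smad4 KO water replicate 4. For DSS in WT, Slc11a2 moved from 0.13 to -0.01 with the replicate block, -0.11 in prefix D and -0.02 without the high-mitochondrial libraries, and Tfrc from -0.13 to between -0.29 and 0.23 with 1 library left out (0.23 without WT water replicate 2). Between genotypes after DSS, Slc11a2 moved from -0.06 to 0.04 in prefix D. With 1 library left out it ranged from -0.12 to 0.04 (0.04 without WT replicate 3), Heph from -0.01 (without Smad4 KO replicate 1) to 0.16, and Hmox1 from -0.07 (without Smad4 KO replicate 2) to 0.24. For DSS in Smad4 KO, Heph ranged from -0.18 to 0.04 and was above 0 without Smad4 KO water replicate 2 or 3 or Smad4 KO DSS replicate 2. The cause was not tested.

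Same-numbered libraries deviated from their group means with correlations of -0.11 to 0.08, except WT and Smad4 KO replicate 4 on water (0.42). Those libraries share the name prefix MP and are both rich in mitochondrial reads. The replicate numbers were not taken as pairs in the main fits. With the replicate block Bnip3 lost its call after DSS (adjusted p = 0.081) and Slc39a8 did not (0.029). Cp in the WT DSS libraries rests on 3 to 11 reads, which limits the precision of its fold change.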
